A study of Mus musculus with 5 samples.

Results

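The antioxidant enzyme genes of hematopoietic stem cells (HSCs) were examined as 10 genes found in the table by symbol: Sod1, Sod2, Cat, Gpx1, Prdx1, Txn1, Txnrd1, Nqo1, Hmox1 and Gclm. All 10 were found among the 24046 genes of the deposited table, and all 10 passed the filter on low values, which left 13661 genes for testing. Bulk RNA sequencing compared 3 control libraries, called WT (WT 1, WT 2 and WT 3), with 2 knockout libraries, called KO (KO 2 and KO 3). Donor marrow was Syncrip flox/flox in both groups, with no Mx1 Cre transgene in WT and with it in KO. Marrow was transplanted into congenic CD45.1 mice, and pIpC, which induces interferon and thereby the Mx1 promoter that drives Cre, was given to both groups. HSCs were sorted as CD45.2+, Lin-, Sca1+, cKit+, CD150+, CD48- cells 9 weeks after transplantation and 3 weeks after pIpC. Per the study's methods, the recipients had been lethally irradiated. Mx1-Cre is active in many interferon-responsive cells, so donor-derived cells other than HSCs in the same marrow could also have been recombined, while cells of the host carried no floxed allele. The labels do not say whether each library came from a separate mouse, and p-values therefore measure the spread between these libraries.

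Reactive oxygen species are removed in steps. Superoxide dismutases convert superoxide to hydrogen peroxide, and catalase, glutathione peroxidases and peroxiredoxins reduce the peroxide, with glutathione or thioredoxin as the source of electrons for the latter enzymes. Many of these genes are induced by the transcription factor NRF2 (Nfe2l2), which KEAP1 marks for degradation until oxidants modify KEAP1, and which binds antioxidant response elements. Quiescent HSCs keep reactive oxygen species low, and FoxO factors and the kinase ATM are known to be needed for this.

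Between 12539599 and 22779536 reads were assigned to genes per library, and both KO libraries were shallower than each WT library. Values are normalized read counts, that is, reads divided by a size factor of the library by the authors. Syncrip, the floxed gene, stood at 1944, 1440 and 1794 in WT 1, WT 2 and WT 3 and at 294 and 343 in KO 2 and KO 3, a log2 difference of -2.43 (limma adjusted p = 0.0352). The Syncrip difference was -1.47 (limma adjusted p = 0.147) with a linear trend on transcript length and GC content taken out of each library, and its adjusted p was 0.164 to 0.210 when any WT library was left out. The 10 HSC markers were detected in all libraries and took 0.0769% to 0.138% of reads in WT, 0.106% in KO 2 and 0.211% in KO 3. Neutrophil and myeloid markers, led by Mpo and Ngp, took far more, at 5.77% to 6.90% of reads in WT, 5.15% in KO 2 and 2.52% in KO 3, although the sort excluded lineage-positive cells. Adipocyte markers took 0.120% of reads in KO 2 and at most 0.00295% in the other 4 libraries. Megakaryocyte markers took 0.0287% to 0.0510% of reads in WT, 0.0596% in KO 2 and 0.139% in KO 3, and DESeq2 called 4 of these 6 markers higher, among them Vwf and Pf4 (9.54% of all genes were called higher). In summed share, both KO libraries were thus higher for megakaryocyte and lower for neutrophil and myeloid markers than all WT libraries, while the adipocyte markers were high in KO 2 and low in KO 3. The neutrophil and myeloid markers differed among themselves: Ltf, Camp and Ngp (3 of 9) were below all WT values in both KO libraries, whereas Elane and Prtn3 were above all WT values in KO 2 and Mpo was inside the WT range there. The part of these cells in the results was not tested. In bulk samples, fewer cells of a type and less RNA per cell cannot be told apart.

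Because several members are textbook NRF2 targets, promoter windows were searched for the core of the antioxidant response element, and the matches are printed here since they mark which members carry that core close to their start. RefSeq windows (GRCm38.p6) of 250 bases before to 50 bases after an annotated start were found for 9 of the 10 genes, in 11 windows, 3 of them for Txnrd1. Distances are to the RefSeq start of the window. For Sod1 and Prdx1 this start differs from the GENCODE gene start given further below. The Hmox1 promoter was not searched here. On both strands, TGACNNNGC was present in 4 of these windows, each of a different gene, and in 12.4% of all 32851 windows. In each sequence the capitals mark the core, and in each the core lay on the strand opposite to the gene, so that the minus strand is printed.
Sod1, chr16:90220696-90220724, core 48 to 56 bases before the start: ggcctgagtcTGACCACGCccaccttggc
Prdx1, chr4:116685456-116685484, core 125 to 133 bases before the start: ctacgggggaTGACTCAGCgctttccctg
Txnrd1, chr10:82859104-82859132, core 84 to 92 bases before an alternative start that lies inside the gene: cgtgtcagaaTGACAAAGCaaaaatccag
Gclm, chr3:122245413-122245441, core 126 to 134 bases before the start: tcgtgagagtTGACGGTGCgcccgggagc
The Prdx1 match overlapped an AP-1 site, TGACTCA, which was present in 5.2% of all windows. A further AP-1 site lay in the same Prdx1 window, on the strand of the gene, 231 to 237 bases before the start. A forkhead site, TGTTTAC, searched because FoxO factors are known regulators of Sod2 and Cat, was in none of the 11 windows and in 3.65% of all windows. Matches are descriptions of these letters, and binding was not measured.

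The control levels of the genes in these sorted, transplanted and pIpC-treated cells were compared per kilobase of the longest coding transcript. Which transcripts these cells express was not checked, and the order depends on the length used. Before division by length, the WT mean of Sod2 (1892) was above that of Sod1 (694). Gpx1 was the highest by far, with 36114 ± 5148 normalized reads per kilobase (SD, n = 3), above 99.9% of tested genes when ranked by WT mean normalized read count. Txn1 followed with 3851 ± 994 per kilobase and Prdx1 with 2004 ± 636. Sod1 (1082 ± 172) and Txnrd1 (1073 ± 14.9) overlapped each other in their WT values per kilobase, as did Cat (855 ± 17.0) and Gclm (823 ± 81.2). Sod2 stood at 323 ± 20.5 per kilobase, and Hmox1 (262 ± 9.99) and Nqo1 (216 ± 37.8), which overlapped, were the lowest. The 10 genes together took 0.280% to 0.349% of WT reads, 0.422% in KO 2 and 0.366% in KO 3, and Gpx1 alone made up 60.5% to 65.5% of these reads in WT and 69.8% and 69.5% in KO 2 and KO 3.

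Whether SYNCRIP loss was accompanied by a change in these transcripts was then tested. None of the 10 genes was called by limma at an adjusted p under 0.05, a threshold that 0.00732% of all tested genes passed. An unadjusted p under 0.05 was reached by 2 genes, Sod2 (higher in KO) and Hmox1 (lower in KO), and by 27.8% of all tested genes. edgeR's quasi-likelihood test on recovered reads called 0 of the 10 (0.0146% of all tested genes), and DESeq2 called 1, Sod2, where it called 19.3% of the genes it gave an adjusted p. Both KO values lay above all 3 WT values for Sod2, Cat and Gpx1 (3 of 10, against 23.9% of all tested genes) and below them for Hmox1 (1 of 10, against 23.2%). With 10 genes, these counts were close to the background of all genes. The median log2 fold change of the 10 genes was 0.07, beside 0.02 over all genes tested, and their log2 fold changes ran from -0.77 to 0.56.

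**Figure D1:**
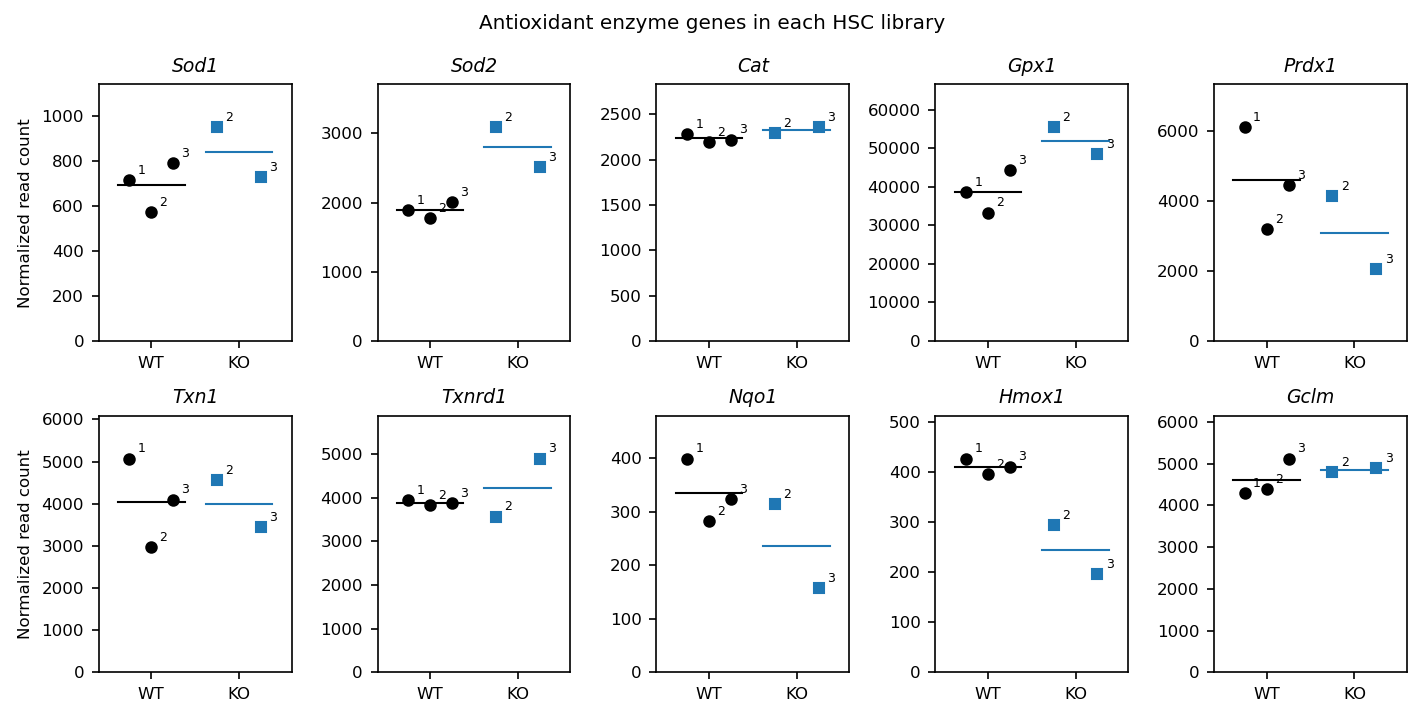
Normalized read count (y axis, from 0, a separate scale per gene) of each antioxidant enzyme gene in WT (black circles) and KO (blue squares) libraries; the digit is the replicate number and the bar is the group mean. Both KO points lie above the WT points for Sod2 (3089 and 2516 against at most 2010), and both lie below them for Hmox1 (294 and 196 against at least 395).

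The superoxide dismutases were considered first. Sod2 encodes the manganese enzyme of the mitochondrial matrix and lies on chromosome 17 (13006846 to 13040063, plus strand, GENCODE M21 on GRCm38, as are all gene coordinates below). Its normalized read count was 1895, 1770 and 2010 in WT 1, WT 2 and WT 3, and 3089 and 2516 in KO 2 and KO 3. Both KO libraries were higher than all WT libraries, with KO 2 at 163% and KO 3 at 133% of the WT mean. WT libraries averaged 1892 ± 120 (SD, n = 3) and KO libraries 2803 ± 405 (SD, n = 2). On the log2 scale KO exceeded WT by 0.56 (SE 0.18, 95% interval 0.15 to 0.97, limma adjusted p = 0.104), and DESeq2 gave 0.57 (adjusted p = 0.0303). Sod2 had the largest positive difference of the 10 genes by limma and the only DESeq2 call among them.

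Sod1 encodes the copper and zinc enzyme of the cytosol (chromosome 16, 90220754 to 90226329, plus strand). It was measured at 717, 574 and 791 normalized reads in WT and at 951 and 727 in KO 2 and KO 3. KO 2 exceeded every WT library, and KO 3 lay inside the WT range. This gave 0.27 on the log2 scale (SE 0.24, 95% interval -0.27 to 0.82, limma adjusted p = 0.475), and 0.11 after removal of the GC and length trend. Leaving out 1 library placed the Sod1 difference between 0.08 (without KO 2) and 0.47 (without KO 3). Of the 50-base stretches of its longest coding transcript, 23.1% were also found in transcripts of other genes, of which Gm8566 shared the most, so that reads could be shared. Ccs, which loads copper into SOD1, had 689, 537 and 604 in WT and 733 and 709 in KO (0.25 on the log2 scale, limma adjusted p = 0.480), and the direction of its difference turned, to -0.19, with that trend removed. The ratio of Sod2 to Sod1 reads within a library, which does not depend on scaling and was, like the other ratios below, picked after the values had been seen, was 2.64, 3.09 and 2.54 in WT and 3.25 and 3.46 in KO, so that the groups did not overlap, and KO 2 stood only just above WT 2.

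Next were the enzymes that remove hydrogen peroxide without thioredoxin. Gpx1 encodes the main cytosolic glutathione peroxidase, a selenoprotein (chromosome 9, 108338903 to 108340343, plus strand). It was at 38551, 33278 and 44313 normalized reads in WT and at 55471 and 48506 in KO 2 and KO 3. Both KO values were above all WT values, the lower of them by less than the distance between WT libraries. The KO libraries differed from WT by 0.43 on the log2 scale (SE 0.20, 95% interval -0.03 to 0.90, limma adjusted p = 0.205), and DESeq2 gave an adjusted p of 0.110. After removal of the GC and length trend it was -0.052 (limma adjusted p = 0.920), so that the direction of the Gpx1 difference depended on whether this trend was taken out.

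Cat encodes catalase, the peroxisomal enzyme that splits hydrogen peroxide (chromosome 2, 103453849 to 103485160, minus strand). Cat was the steadiest of the 10 genes across libraries, with 2284, 2198 and 2223 normalized reads in WT and 2292 and 2359 in KO. Both KO values exceeded the highest WT value, in KO 2 by a margin smaller than that between WT 1 and WT 2. The KO mean was 104% of the WT mean, and the log2 difference was 0.06 (SE 0.16, 95% interval -0.32 to 0.43, limma adjusted p = 0.839). With TMM scaling only 2 of the 10 genes had both KO values above all WT values, in place of 3. The share of all tested genes under that scaling is not given here.

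The thioredoxin chain passes electrons from NADPH through thioredoxin reductase and thioredoxin to peroxiredoxin. Prdx1 encodes the abundant cytosolic peroxiredoxin (chromosome 4, 116685544 to 116700822, plus strand). It was at 6121, 3211 and 4458 normalized reads in WT, at 4156 in KO 2 and at 2046 in KO 3. KO 2 lay within the WT range, while KO 3 was below all WT libraries at 44.5% of their mean. Its log2 fold change was -0.61 (SE 0.34, 95% interval -1.39 to 0.18, limma adjusted p = 0.277) and was close to 0, at -0.0006, once the trend on length and GC was taken out. Of its 50-base stretches, 10.9% were shared with other genes, of which Gm21399 shared the most.

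Txn1, the gene of cytosolic thioredoxin (chromosome 4, 57943373 to 57956411, minus strand), had 5067, 2979 and 4095 normalized reads in WT and 4556 and 3450 in KO 2 and KO 3. Both KO values lay inside the WT range. The groups differed by 0.0038 on the log2 scale (SE 0.25, 95% interval -0.56 to 0.57, limma adjusted p = 0.993), and its sign changed with the tool and the scaling (-0.017 with TMM).

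Txnrd1, the gene of the cytosolic thioredoxin reductase and, like Gpx1, of a selenoprotein (chromosome 10, 82833951 to 82897712, plus strand), was at 3944, 3838 and 3873 in WT. It was at 3569 in KO 2, under every WT library, and at 4892 in KO 3, over every WT library. The KO libraries thus lay on opposite sides of a narrow WT range, and the fold change on the log2 scale was 0.11 (SE 0.19, 95% interval -0.32 to 0.53, limma adjusted p = 0.733). Within a library, the ratio of Prdx1 to Txnrd1 reads was 1.55, 0.837 and 1.15 in WT, 1.16 in KO 2 and 0.418 in KO 3. KO 3 alone was outside the WT range of this ratio.

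**Figure D2:**
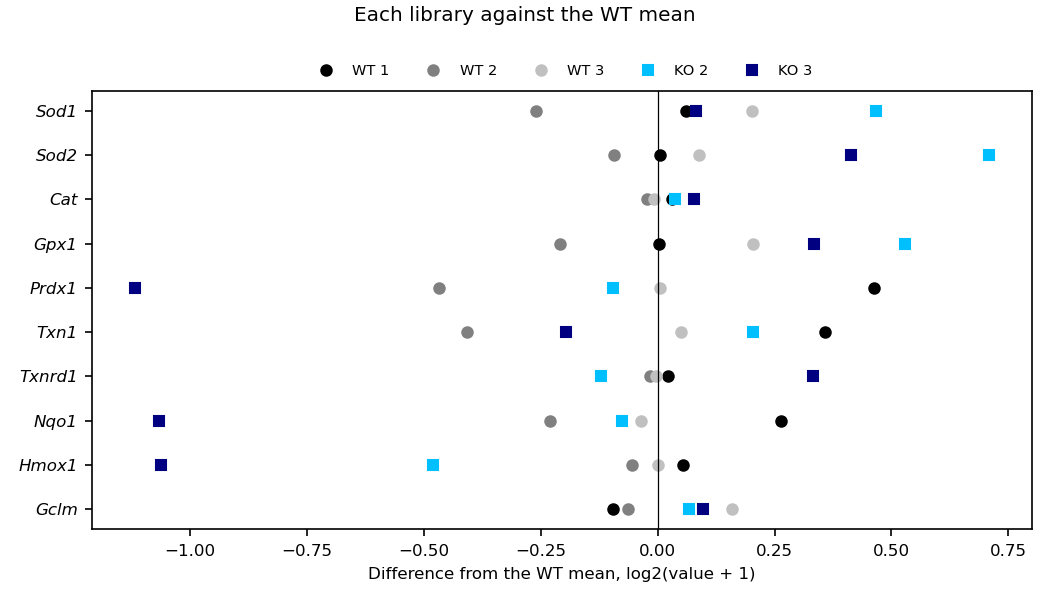
Difference of each library from the WT mean on the log2(value + 1) scale (x axis) for each antioxidant enzyme gene; circles are WT and squares KO libraries. KO 3 (dark blue) lies at -1.12 for Prdx1, -1.07 for Nqo1 and -1.06 for Hmox1, while KO 2 (light blue) is at -0.10, -0.08 and -0.48 for these genes.

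The last group comprised genes known best as NRF2-inducible. Hmox1 encodes heme oxygenase-1, which degrades heme, and lies on chromosome 8 (75093621 to 75100589, plus strand). Its normalized read count was 426, 395 and 411 in WT and 294 and 196 in KO 2 and KO 3. Both KO libraries were below a narrow WT range, with KO 2 at 71.6% and KO 3 at 47.7% of the WT mean. WT libraries averaged 411 ± 15.7 (SD, n = 3) and KO libraries 245 ± 69.4 (SD, n = 2). The difference on the log2 scale was -0.77 (SE 0.28, 95% interval -1.41 to -0.13, limma adjusted p = 0.127), the most negative of the 10 genes. DESeq2 gave an adjusted p of 0.0703. With the length and GC trend removed the difference was -0.98 (limma adjusted p = 0.202). Without KO 2, when KO 3 was the lone KO library and was assumed to vary like WT, it was -1.06 (limma adjusted p = 0.0372), and without KO 3 it was -0.48 (limma adjusted p = 0.451).

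Hmox1 is abundant in macrophages that recycle red cells, and markers of these cells were therefore read in each library. The 8 macrophage markers measured took 0.0205% to 0.0288% of reads in WT, 0.0230% in KO 2 and 0.00774% in KO 3, and Marco was at 0 reads in all libraries. KO 3 had the lowest macrophage marker share and the lowest Hmox1, and the share in KO 2 was inside the WT range. Single markers differed in KO 2: C1qb, C1qc, Cd5l and Mertk were above all WT values, and Csf1r was below them. Csf1r was at 683, 1135 and 785 in WT and at 353 and 454 in KO 2 and KO 3 (limma adjusted p = 0.0820, DESeq2 adjusted p = 0.00694). The part of other cells in the Hmox1 difference was not tested. Hmox2, the constitutive heme oxygenase gene, had 1755, 1357 and 1374 in WT and 1344 and 1336 in KO, which was -0.15 on the log2 scale (limma adjusted p = 0.645). Hmox2 reads were 3.35 to 4.12 times those of Hmox1 in WT, 4.57 times in KO 2 and 6.82 times in KO 3.

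Nqo1 encodes a quinone reductase (chromosome 8, 107388225 to 107403206, minus strand). It was at 399, 283 and 324 normalized reads in WT, at 315 in KO 2 and at 158 in KO 3. As for Prdx1, KO 2 lay among the WT libraries and KO 3 under all of them, at 47.1% of the WT mean. This came to -0.57 on the log2 scale (SE 0.36, 95% interval -1.39 to 0.24, limma adjusted p = 0.320).

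Gclm encodes the modifier subunit of glutamate-cysteine ligase, which makes the precursor of glutathione (chromosome 3, 122245557 to 122270732, plus strand). It was at 4290, 4388 and 5120 in WT and at 4800 and 4902 in KO. Both KO values lay within the WT range, and the log2 fold change was 0.08 (SE 0.17, 95% interval -0.30 to 0.46, limma adjusted p = 0.772). Exons of Gclm overlap Gm17494 on the opposite strand and Gm6061 on the same strand, and the use of strand in counting is not given in the sources used here. Gclc, the catalytic subunit of the same enzyme, had 2657, 2514 and 3133 in WT and 2305 and 2120 in KO (-0.32 on the log2 scale, limma adjusted p = 0.273, and -0.13 after removal of the length and GC trend). Within a library, Gclm reads were 1.61 to 1.75 times those of Gclc in WT and 2.08 and 2.31 times in KO 2 and KO 3, without overlap.

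**Figure D3:**
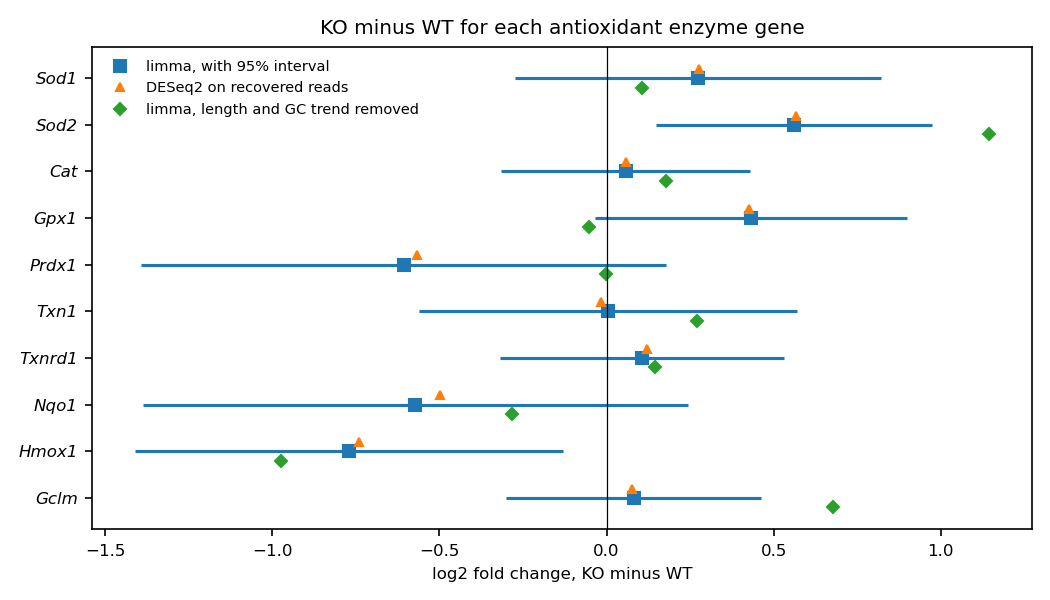
log2 fold change of KO minus WT (x axis) for each antioxidant enzyme gene, by limma with its 95% interval (blue squares and lines), by DESeq2 on recovered reads (orange triangles), and by limma with the length and GC trend removed (green diamonds). The limma interval lies above 0 for Sod2 (0.15 to 0.97), below 0 for Hmox1 (-1.41 to -0.13) and spans 0 for the others; green moves Sod2 to 1.15 and Gclm to 0.68.

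GC content moved with the fold change across all genes and so bears on how each member is read. Among 13523 tested genes with a matched transcript, the median log2 fold change went from -0.81 in the tenth of genes with the lowest GC content to 0.75 in the tenth with the highest. This was seen in both KO libraries, from -0.59 to 0.48 in KO 2 and from -1.06 to 1.01 in KO 3. The source of this trend was not tested, and its removal also shrank the Syncrip difference, from -2.43 to -1.47. Prdx1 (42.3% GC), Sod1 (53.2%) and Gpx1 (57.2%) were close to the median of genes in their own GC bin, which was -0.53, 0.22 and 0.47. Sod2 (42.2% GC) and Gclm (42.1%) lay in the same bin as Prdx1 and stood at 0.56 and 0.08, above its median. Hmox1 (53.3% GC) shared the bin of Sod1 and stood at -0.77. After removal of the trend, Sod2 was at 1.15 (unadjusted p = 2.5e-05, limma adjusted p = 0.0891), Gclm at 0.68 (limma adjusted p = 0.202) and Nqo1 at -0.28 (limma adjusted p = 0.624).

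**Figure D4:**
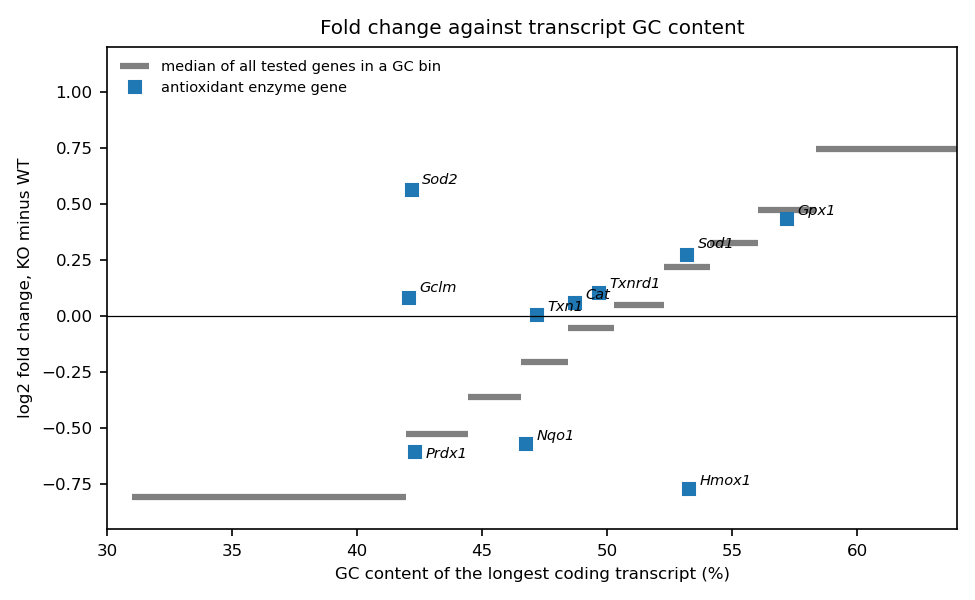
log2 fold change of KO minus WT (y axis) against the GC content of the longest coding transcript in percent (x axis); squares are antioxidant enzyme genes and grey bars are medians of all tested genes in 10 bins of GC content, the last bar drawn to 64%. Bin medians climb from -0.81 to 0.75; Sod2 (0.56) sits above its bin median of -0.53, and Hmox1 (-0.77) below its bin median of 0.22.

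The remainder of the pathway was read from 10 lists of 92 further genes, of which 90 were tested. limma called 0 of the 90 at an adjusted p under 0.05. An unadjusted p under 0.05 was reached by 26, of which 14 were higher (13.3% of all tested genes) and 12 lower (14.5% of all tested genes). edgeR called 0, and DESeq2 called 14 of the 88 to which it gave an adjusted p, 9 higher (9.54% of all) and 5 lower (9.81%). Both KO values were above all WT values for 29 genes (23.9% of all tested genes) and below them for 13 (23.2% of all). The median log2 fold change of the 90 genes was 0.16, beside 0.02 over all genes, and was 0.04 after removal of that trend.

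The relatives of Gpx1 and Prdx1 came first. Gpx4, the glutathione peroxidase that reduces lipid peroxides, had 4164, 4142 and 4669 normalized reads in WT and 6740 and 6151 in KO (log2 difference 0.58, limma adjusted p = 0.0893, DESeq2 adjusted p = 0.0116). It was the only DESeq2 call among the other peroxidases, peroxiredoxins and sulfiredoxin (9.54% of all genes were called higher by DESeq2 and 9.81% lower), of which 2 of 10 had both KO values above WT (23.9% of all tested genes) and 0 below (23.2%). With the length and GC trend removed the Gpx4 difference was -0.13. Srxn1, which restores overoxidized peroxiredoxins, had 331, 280 and 231 in WT and 422 and 509 in KO, with no overlap between the groups (log2 fold change 0.73, limma adjusted p = 0.136). Its difference was 0.51 (limma adjusted p = 0.361) once the trend was removed. Prdx3, the mitochondrial peroxiredoxin, lay in the other direction, at 3546, 2415 and 4045 in WT and 3000 and 1449 in KO 2 and KO 3. As for Prdx1, KO 2 was inside the WT range and KO 3 under it (-0.64, limma adjusted p = 0.236, and -0.26 once the trend was removed). Gpx7, a low gene, had 29.1, 45.1 and 8.57 in WT and 36.0 and 123 in KO, which overlapped (limma adjusted p = 0.270). Eefsec, the elongation factor that delivers selenocysteine, was the only DESeq2 call of the 6 genes of selenoprotein synthesis (against 9.54% of all genes called higher), at 1493, 1777 and 1537 in WT and 2107 and 3163 in KO (log2 difference 0.69, DESeq2 adjusted p = 0.0274, limma adjusted p = 0.102), and its difference was 0.22 (limma adjusted p = 0.480) once the trend was removed.

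Glutaredoxins differed in direction. Glrx, the cytosolic glutaredoxin, had 2150, 2036 and 2734 in WT and 1578 and 682 in KO (log2 difference -1.14, limma adjusted p = 0.0921, DESeq2 adjusted p = 0.0266). Glrx5, the mitochondrial glutaredoxin of iron-sulfur cluster assembly, had 4406, 4459 and 5310 in WT and 7584 and 7882 in KO (0.72, limma adjusted p = 0.0816, DESeq2 adjusted p = 0.00291). With the length and GC trend removed Glrx was at -0.80 and Glrx5 at 0.51 (limma adjusted p of 0.232 and 0.217). Their list of 13 held no other DESeq2 call (19.3% of all genes were called). Both KO values were above all WT values for 4 of the 13, Glrx5 among them, and below for 2, Glrx among them (23.9% and 23.2% of all tested genes). Among the 20 genes of glutathione synthesis, recycling and transfer, DESeq2 called 1 higher and 0 lower (9.54% and 9.81% of all genes). The most extreme limma values of this list were those of low genes, Oplah at 3.11 and Slc7a11 at -1.61 (limma adjusted p of 0.154 and 0.156), the latter at -0.93 once the trend was removed.

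The regulators of NRF2 showed 6 of 11 genes with both KO values above WT (23.9% of all tested genes) and 2 with both below (23.2%). The median log2 fold change of this list was 0.33, and 0.05 after removal of the length and GC trend. Keap1, the NRF2 inhibitor, had 2502, 3049 and 2742 in WT and 4059 and 6283 in KO (log2 difference 0.87, limma adjusted p = 0.0818, DESeq2 adjusted p = 0.00525). Nfe2l2 itself had 2767, 2908 and 3441 in WT and 2367 and 1627 in KO (-0.62, limma adjusted p = 0.116, DESeq2 adjusted p = 0.0578). Keap1 was therefore above and Nfe2l2 below all WT libraries in both KO libraries, with the larger distance in KO 3 for each. With the length and GC trend removed these differences were 0.29 and -0.36 (limma adjusted p of 0.352 and 0.345). Maff, a small MAF partner, was at 75.8, 79.0 and 43.7 in WT and at 111 and 346 in KO (log2 difference 1.6, limma adjusted p = 0.118, DESeq2 adjusted p = 0.0229), and the difference was 1.07 (limma adjusted p = 0.341) once the trend was removed.

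In the list of FoxO, ATM and sestrin genes, Atm had 506, 535 and 567 in WT and 258 and 276 in KO (log2 difference -1.0, limma adjusted p = 0.0816, DESeq2 adjusted p = 0.00232). The KO libraries were close to each other, under all WT libraries, and the Atm difference was -0.46 after removal of the GC and length trend. Sesn2, a stress-induced sestrin, had 533, 549 and 477 in WT and 748 and 1169 in KO (0.85, limma adjusted p = 0.0941, DESeq2 adjusted p = 0.0172), and stood at 0.21 with that trend removed. Foxo3, the FoxO factor most often tied to HSC maintenance, had 117, 153 and 201 in WT and 128 and 273 in KO, which overlapped. Foxo3 was named after its values were seen.

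For the supply of NADPH, G6pdx, the entry enzyme of the pentose phosphate pathway, had 7864, 9686 and 10575 in WT and 7033 and 3288 in KO (log2 difference -0.95, limma adjusted p = 0.104, DESeq2 adjusted p = 0.0420). The G6pdx difference was -1.12 (limma adjusted p = 0.209) once the length and GC trend was removed. Me1, malic enzyme, had 23.3, 8.68 and 3.43 in WT, 244 in KO 2 and 25.8 in KO 3 (log2 difference 3.0, limma adjusted p = 0.129, DESeq2 adjusted p = 0.0106). KO 2 was also the library with adipocyte markers at 0.120% of reads, where KO 3 had 0.000367%, and Ucp1 was at 5622 in KO 2 and at 0 reads in the others. HSCs had been sorted as CD45.2+, cKit+ cells, and carry-over of other cells was not measured here. The part of adipocyte RNA in the Me1 value was not tested, nor in that of any antioxidant enzyme gene.

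The genes of iron handling and of the NADPH oxidase, the main source of superoxide in phagocytes, closed the survey. Ftl1, the ferritin light chain, had 23467, 24828 and 26589 in WT and 36993 and 37808 in KO (log2 difference 0.59, limma adjusted p = 0.0941, DESeq2 adjusted p = 0.00546), and stood at 0.04 after removal of the GC and length trend. Slc40a1, the iron exporter ferroportin, had 3370, 3445 and 4553 in WT and 2369 and 825 in KO (-1.42, limma adjusted p = 0.0877, DESeq2 adjusted p = 0.0157), and stood at -0.92 (limma adjusted p = 0.249) once the trend was removed. Cybb, the catalytic subunit of the phagocyte oxidase, was at 13651, 15421 and 20293 in WT and at 7456 and 2520 in KO (-1.90, limma adjusted p = 0.0815, DESeq2 adjusted p = 0.000776). With the length and GC trend removed the Cybb difference was -1.33 (limma adjusted p = 0.202). Of the 6 tested oxidase genes, 5 had a log2 fold change below 0, as did 6682 of all 13661 tested genes, and Cybb was the only DESeq2 call (9.81% of all genes were called lower). The share of neutrophil and myeloid markers was lowest in KO 3 (2.52%), next lowest in KO 2 (5.15%) and 5.77% to 6.90% in WT, and moved in the same direction as Cybb, Hmox1 and Glrx; none of the 9 markers was at 0. The part of this in those genes was not tested.

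**Figure D5:**
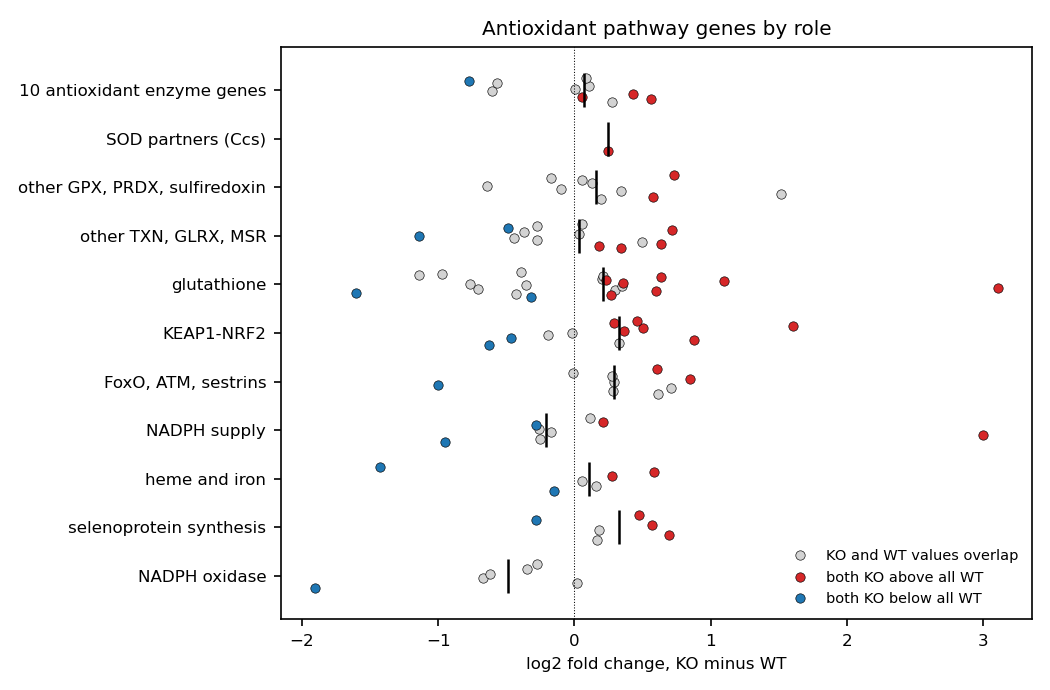
log2 fold change of KO minus WT (x axis) of each tested gene, grouped by role; red points have both KO values above all WT values, blue points both below, grey points overlap, and the vertical bar is the median of the list. The 10 antioxidant enzyme genes have a median of 0.07, the KEAP1-NRF2 regulators 0.33 and the NADPH oxidase genes -0.49.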

How the data were processed

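The authors deposited normalized signal per gene symbol, that is, read counts divided by a size factor of the library. Per the labels, RNA of sorted cells was made into libraries with the SMART-Seq v4 kit, and the submitters' processing notes name STAR, featureCounts, DESeq2 and mm10. The annotation and the use of strand are not given in the sources used here. A deposited table of the authors' own comparison (log2 fold changes and p-values) was not used. Each column advanced in steps worth 1 read, and division by that step returned whole reads (100% of values within 0.001), 12539599 to 22779536 per library. Counting intervals and floors cover counting error only. All libraries differed from each other by more than counting noise (lowest chi-square 33.8 times its degrees of freedom).

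limma 3.58.1 (lmFit and eBayes with a trend) was fitted in R 4.3.3 to log2(value + 1) of the 13661 genes that reached 10 in 2 libraries or more, with genotype as the only term and Benjamini-Hochberg adjustment over all genes tested. Fold changes are on this scale, which understates changes of low genes. A gene was called at an adjusted p under 0.05. The study used DESeq2; DESeq2 1.42.0 and edgeR 4.0.16 were run on the recovered reads as alternatives, since deposited values are not counts. The fits were tested on simulated data. Length, GC content and coordinates came from GENCODE M21 (GRCm38, the assembly also called mm10) by symbol, using the longest coding transcript (13523 of 13661 tested genes, all 10 members), and sharing between genes was checked with stretches of 50 bases.

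The members and lists were chosen with earlier results of these data known. Named genes were the 10 members and, of each other list, at most the 4 with the largest fold change in size; others are named as such or as the partner of a member. Of the other lists, 2 genes are not analysed here.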

Additional observations from a re-analysis of the deposited data

How the results depend on the processing

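All 14 alternatives were fixed with the design. limma called 0 of the 10 antioxidant enzyme genes and 0 of the 90 further pathway genes, and DESeq2 called 1 and 14. Fits that left out 1 library each called 0 to 1 and 0 to 25 of them, the highest counts without KO 2 (Hmox1 and 25 genes), where KO 3 was the lone KO library and was assumed to vary like WT. The count of all genes called, 1 with limma, was 2 with a pseudocount of 10, 2 with edgeR, 2290 with DESeq2, and 0 with all genes above 0 (3963 at an unadjusted p under 0.05), with limma-voom (3517) or with the length and GC trend removed (2170); leaving out 1 library gave 0 to 3024, the latter without KO 2. Syncrip was lower throughout and lost its call with all genes above 0 (-2.43, adjusted p = 0.0503), limma-voom (-2.46, adjusted p = 0.0826), removal of the length and GC trend (-1.47, adjusted p = 0.147) and without each WT library (-2.55 to -2.32 over all fits that left out 1 library). The cause was not tested. Leaving out 1 library gave 3 to 5 members with KO above WT (5 without WT 3) and 1 to 3 with KO below (3 without WT 2 or KO 2). Fewer libraries were then compared, and the share of all tested genes under the same omissions is not given here. These counts are therefore not read against a background.

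Of the 10 members, Sod1, Sod2, Cat, Nqo1, Hmox1 and Gclm kept their direction under all 14 alternatives, Sod2 between 0.41 and 1.15 (adjusted p of 0.0303 to 0.406) and Hmox1 between -1.06 and -0.48 (0.0372 to 0.457). Prdx1 was negative throughout but at -0.00056 (adjusted p = 0.999), in effect without a difference, with the length and GC trend removed. Prdx1 and Nqo1 rested on KO 3: without it they were at -0.10 and -0.08. Gpx1 turned to -0.052 with the length and GC trend removed. Leaving out 1 library placed Txnrd1 between -0.12 (without KO 3) and 0.33 (without KO 2), and Txn1 between -0.20 (without KO 2, and likewise without WT 2) and 0.20 (without KO 3). Txn1 was also negative with TMM (-0.017), edgeR (-0.036), DESeq2 (-0.016) and limma-voom (-0.011). The median of the members stayed within 0.05 to 0.13.

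WT and KO share the replicate numbers 2 and 3 in the labels, with no stated pairing. With the number as a block, 6 genes in all were called and 0 members. Same-numbered libraries deviated with correlations of -0.06 (number 2) and -0.18 (number 3). The deviations of the 2 KO libraries mirror each other, so both correlations rest on the same KO contrast and cannot decide on a pairing. The numbers were not taken as pairs because no pairing is stated. Depth was lowest in KO 3 (12539599 reads), where Nqo1, the lowest member, had 104 reads.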
